A study of Homo sapiens with 32 samples.

Results

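The ID genes and the genes of bone morphogenetic protein (BMP) signalling were followed through RNA-Seq counts of total (T) and polysome-bound (P) mRNA from 2 human breast cell lines. They were 10 genes chosen by symbol among the 19815 protein-coding genes in the count tables, which list 60554 genes in all. The 4 ID genes (ID1, ID2, ID3 and ID4) stood beside the ligands BMP2 and BMP4, the receptors BMPR1A and BMPR2, and the inhibitory SMADs SMAD6 and SMAD7. ID3 and BMP2 were picked because of their changes with PP242 in these same libraries, so every PP242 value of these 2 genes below is a description and carries no test.

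MCF10A is an immortalised, non-tumorigenic mammary epithelial line, and MDA-MB-231 is a triple-negative carcinoma line of metastatic origin. Cells received the DMSO vehicle in normoxia (N), DMSO in 0.5% O2 for 24 hours (H), 2.5 µM PP242 for 3 hours in normoxia (NPP), or PP242 in hypoxia (HPP). PP242 is an ATP-competitive mTOR kinase inhibitor that acts on both mTOR complexes. Each treatment gave T and P libraries with 2 biological replicates per group, which made 16 libraries per line and 32 in all. The libraries held 18340916 to 46032327 counts (median 34561484), of which 97.4% to 99.2% lay in protein-coding genes. The methods add epidermal growth factor, hydrocortisone, cholera toxin and insulin to the MCF10A medium and list none of these for MDA-MB-231. The lines also sit in separate count tables. A difference between lines therefore cannot be told apart from one between the media or the tables. Replicates were separate samples of 1 established line each.

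BMPs are secreted ligands that bring together type I receptors such as BMPR1A and the type II receptor BMPR2. The activated type I receptor phosphorylates SMAD1, SMAD5 or SMAD9, which join SMAD4 and enter the nucleus. ID1, ID2 and ID3 are classical direct targets of that complex. ID proteins lack a DNA-binding region and hold basic helix-loop-helix factors off DNA, and in mammary epithelium they are associated with proliferation and a less differentiated state. SMAD6 and SMAD7 are induced by the same signalling and restrain it, SMAD6 mainly the BMP branch and SMAD7 both the BMP and the TGF-β branch.

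The hypoxia label was checked on CA9, the hypoxia-induced carbonic anhydrase. Its level in MCF10A was 7.72 to 26.9 CPM (counts scaled to the depth of the library, with TMM factors) in 8 normoxic libraries and 522 to 1356 in 8 hypoxic ones. In MDA-MB-231 it was 0.0568 to 1.02 and 13.0 to 34.6. The cell line label was checked on marker genes. Libraries labelled MCF10A held the basal keratins KRT5 (1190 to 3268 CPM), KRT14 (458 to 4203 CPM) and KRT17 (48.5 to 1034 CPM). They were near 0 for the other 3 of 6 basal epithelial markers, since CDH1 reached at most 0.361 CPM, EPCAM 0.461 CPM and TP63 0.226 CPM. All 4 mesenchymal markers were present there, with VIM at 1691 to 9370 CPM, CDH2 at 28.2 to 87.7 CPM, SPARC at 91.7 to 203 CPM and ZEB1 at 4.69 to 32.6 CPM. Of the 3 fibroblast markers DCN lay at 64.1 to 238 CPM in these libraries, COL1A1 at 3.62 to 19.2 CPM and PDGFRB at 2.03 to 11.3 CPM, and whether this profile has a part in the ID and BMP values was not tested. Libraries labelled MDA-MB-231 held VIM (3113 to 6082 CPM) and ZEB1 (43.6 to 88.2 CPM) but almost no CDH2 (at most 1.53 CPM) or SPARC (at most 0.796 CPM). Of the basal epithelial markers they held EPCAM at 9.86 to 19.1 CPM, above every MCF10A library, and KRT17 at 0.858 to 6.36 CPM. KRT5 reached at most 0.284 CPM there, KRT14 0.610 CPM, CDH1 0.568 CPM and TP63 0.568 CPM. Their fibroblast markers were COL1A1 at 8.44 to 16.5 CPM, PDGFRB at 1.31 to 2.75 CPM and DCN at 0.568 CPM or less. In bulk RNA, fewer expressing cells and less RNA per cell cannot be told apart.

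MCF10A NPP T replicate 2, and to a lesser degree HPP T replicate 2 and some P libraries of that line, stood apart from the other libraries. In each library the median deviation of genes with transcripts over 6000 bases was set against that of genes under 1500 bases, relative to the mean of the line's normoxic libraries of the same fraction. The difference was −1.92 on the log2 scale in MCF10A NPP T replicate 2 and −1.08 in HPP T replicate 2, so long transcripts were low in both. Their replicate 1 partners stood at 0.41 and 0.37. In P of MCF10A long transcripts were high in HPP replicate 2 (1.04) and H replicate 2 (0.89), and the normoxic replicates stood at −0.75 and 0.75. All MDA-MB-231 libraries lay between −0.50 and 0.49. BMPR2, whose canonical transcript of 12068 bases is the longest of the 10, followed this balance, as described with the receptors. ID1 (983 bases), ID3 (950 bases) and ID2 (1299 bases) have the shortest transcripts.

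SMAD complexes are known to bind short GTCT or AGAC elements. Start regions are shown for 3 genes that were low after PP242 in MCF10A and whose windows held a motif named below, so a match was part of the choice. Windows of 250 bases before to 50 bases after each annotated start (RefSeq, GRCh38.p14) were searched on both strands for GTCTAGAC, for CAGAC, which reads as GTCTG on the other strand, and for GGCGCC, motifs whose matches do not overlap. SMAD6 lies on chromosome 15 (GRCh38, 66702236 to 66782849, plus strand), ID3 on chromosome 1 (23557926 to 23559501, minus strand) and SMAD7 on chromosome 18 (48919853 to 48950965, minus strand). The runs below are 30 bases each, read 5′ to 3′ on the gene's strand, with the match in capitals.
SMAD6, chr15:66702206-66702235, plus strand: ccgcggagccgccaaagtGTCTAGACtggc
ID3, chr1:23559631-23559660, minus strand: ggtcttcggcgtCAGACcagccggaggaag
SMAD7, chr18:48951076-48951105, minus strand: ttcttattttgcCAGACgtctcatgcgggg
The palindrome GTCTAGAC began 12 bases before the SMAD6 start, and 48 of 22199 promoter windows (0.216%) held it. CAGAC began 147 bases before the ID3 start and 128 bases before a SMAD7 start, and 44.8% of all windows held it, as did 8 of the 13 windows of the 10 genes. GGCGCC stood in 2 of those 13 windows, 1 each of BMP4 and BMPR2, and in 24.3% of all. The ID1 and ID2 windows held none of the 3 motifs, although both genes were also low after PP242 in MCF10A. CAGAC also stood in windows of ID4, BMP4 and BMPR2, which are not shown. Whether a motif goes with the PP242 change was not tested. A match describes letters in a window and not a bound site.

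Before treatment the ID genes separated the 2 lines more than any other of the 10. In normoxic T on a scale shared by all 32 libraries, ID1 stood at 572 and 612 CPM in MCF10A and at 20.7 and 10.7 CPM in MDA-MB-231. ID3 stood at 251 and 331 CPM against 11.9 and 14.3 CPM, and ID2 at 28.0 and 29.6 CPM against 0.623 and 0.856 CPM. None of these 3 genes overlapped between lines, which was also so for 80.7% of all 14298 genes in the joint fit. ID4 went the other way, with 11.9 and 8.94 CPM in MDA-MB-231 and no count in either normoxic T library of MCF10A. In all 16 MCF10A libraries ID4 had 1 count, in N P replicate 2. With counts pooled over the 2 normoxic T libraries, ID4 stood at 10.73 CPM in MDA-MB-231. Set against a floor of 3 counts pooled over the 2 MCF10A libraries (0.0412 CPM), this pooled level was at least 260-fold higher.

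The edgeR quasi-likelihood test of MDA-MB-231 minus MCF10A passed an adjusted p of 0.05, Benjamini-Hochberg over all 14298 genes tested, for 7 of 9 of the genes. The same test called 40.7% of all genes, so a call alone says little here. The log2 fold change (log2FC) was −5.23 for ID1 (SE 0.53, edgeR adjusted p = 7.49e-08), −5.30 for ID2 (SE 0.40, edgeR adjusted p = 1.06e-09) and −4.48 for ID3 (SE 0.34, edgeR adjusted p = 1.08e-09). SMAD6 (−1.16), SMAD7 (−0.98) and BMPR1A (−0.86) were also lower. BMP4 was higher by 3.32 (SE 0.35, edgeR adjusted p = 1.36e-07), from 20.3 and 25.5 CPM in MCF10A to 265 and 191 CPM. BMP2 (1.45, SE 0.65, edgeR adjusted p = 0.0806) and BMPR2 (−0.92, SE 0.64, edgeR adjusted p = 0.267) were not called.

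Per kilobase of the canonical transcript, a scale on which levels of different genes may be compared, the order of mean normoxic T levels also differed between the lines. In MCF10A it ran from ID1 (511 CPM per kb) and ID3 (260) through ID2 (18.8), BMP4 (10.1), BMPR1A (6.96), SMAD7 (5.31), SMAD6 (3.81) and BMPR2 (3.32) to BMP2 (0.127) and ID4, which had no count. In MDA-MB-231 it ran from BMP4 (138 CPM per kb) through ID1 (18.7), ID3 (16.2), BMPR1A (5.28), SMAD7 (3.75), ID4 (3.15), BMPR2 (2.42), SMAD6 (2.34) and ID2 (0.670) to BMP2 (0.481). The order below the leading genes depended on the length used. Per kilobase of all exons joined, SMAD7 (4.49) stood above BMPR1A (4.43) and BMPR2 (3.21) above SMAD6 (1.71) in MCF10A, and BMP2 (0.481) stood above ID2 (0.393) in MDA-MB-231. By both lengths ID transcripts led in MCF10A and a BMP ligand led in MDA-MB-231.

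In MCF10A, ID2, SMAD6 and SMAD7 fell with PP242 in T and P, with and without hypoxia. ID1 fell in each of these comparisons other than NPP against N in T, where its change did not pass (edgeR adjusted p = 0.0772). Of 7 genes tested for PP242 in this line (ID3 and BMP2 were not tested and ID4 was not measurable), the edgeR test called 3 for NPP against N in T, where it called 0.648% of all 13124 genes, and 4 in P, where it called 0.823%. For HPP against N it called 5 in T against a background of 14.9%, and 5 in P against 22.2%. For HPP against H, which gives the PP242 change within hypoxia, it called 4 in T against 3.74% and 4 in P against 6.50%. With only the libraries compared, the 4 calls of HPP against H in T and the 3 of NPP in T were lost, and 0 of all genes were called in these 2 comparisons. The ID1 call of HPP against H in T and the SMAD7 call in P were each lost in 3 of 16 fits that left out 1 library, and the SMAD7 call in P also with only the libraries compared. All 25 calls were decreases. NPP and HPP share the same N libraries and the HPP libraries enter 2 comparisons, so these counts are not independent of each other.

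Without NPP T replicate 2 the edgeR test called 4 of 7 in NPP T (ID1, ID2, SMAD6 and SMAD7) while its calls over all genes went from 85 of 13124 to 32 of 13444, and the 25 calls became 29 over all 8 treatment comparisons, where the share of all tests called went from 6.48% to 8.56%. Without HPP T replicate 2 both the number of these calls and the share of all tests called were lower.

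In MDA-MB-231 the same comparisons, H against N included, gave 4 calls among the genes, where 6.75% of all tests were called. They were 7 by DESeq2, where 10.3% of all tests were called, and 13 with no filter beyond 1 read, where 6.72% were. The counts cover 10 genes for H against N and 8 genes for each other comparison, in T and in P. For NPP against N the edgeR test called 0 of 8 genes in T, where it called 0.555% of 13510 genes, and 0 of 8 in P, where it called 1.95%. In each of those 2 comparisons 4 genes (ID1, ID4, SMAD6 and SMAD7) had an unadjusted p under 0.05, beside 10.3% of all genes in T and 13.6% in P. DESeq2 called ID1 in each, beside 2.06% and 4.53% of the genes to which it gave an adjusted p, which left out ID2 in P. For HPP against N edgeR called 1 of 8 in T (ID1, lower) with 13.2% of all genes called, and 2 of 8 in P (ID1 lower, ID2 higher) with 19.4% called. For HPP against H it called 0 of 8 in T, with 3.78% called, 3 genes at an unadjusted p under 0.05 (18.5% of all) and 1 by DESeq2 (8.13% of all), and 1 of 8 in P (ID4, higher) with 11.5% called. Measured against these backgrounds, the share called in MDA-MB-231 was below that of all genes for HPP in T (12.5% beside 13.2%). It was above it for HPP in P (25% beside 19.4%) and for HPP against H in P (12.5% beside 11.5%), each on 1 or 2 calls.

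In the main edgeR fit of all libraries, hypoxia alone gave no call among the genes in either line. Without NPP T replicate 2, ID2 was called higher with H in T of MCF10A, with a log2FC of 1.55 (edgeR adjusted p = 0.0393). In MCF10A the edgeR test of H against N called 0 of 9 in T (background 1.54%) and 0 of 9 in P (background 1.49%). At an unadjusted p under 0.05 there were 3 in T (ID2, BMP4 and SMAD6), beside 10.9% of all genes, and 5 in P, beside 12.5%. DESeq2 called 2 in T (ID2 and SMAD6), beside 3.83% of all genes, and 1 in P (ID2), beside 4.24%. In MDA-MB-231 edgeR called 0 of 10 in T (background 1.27%) and 0 of 10 in P (background 2.29%), with 2 and 1 at an unadjusted p under 0.05, beside 12.7% and 17.2% of all genes. DESeq2 called none of the 10, beside 2.77% and 5.23% of all genes.

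**Figure D1:**
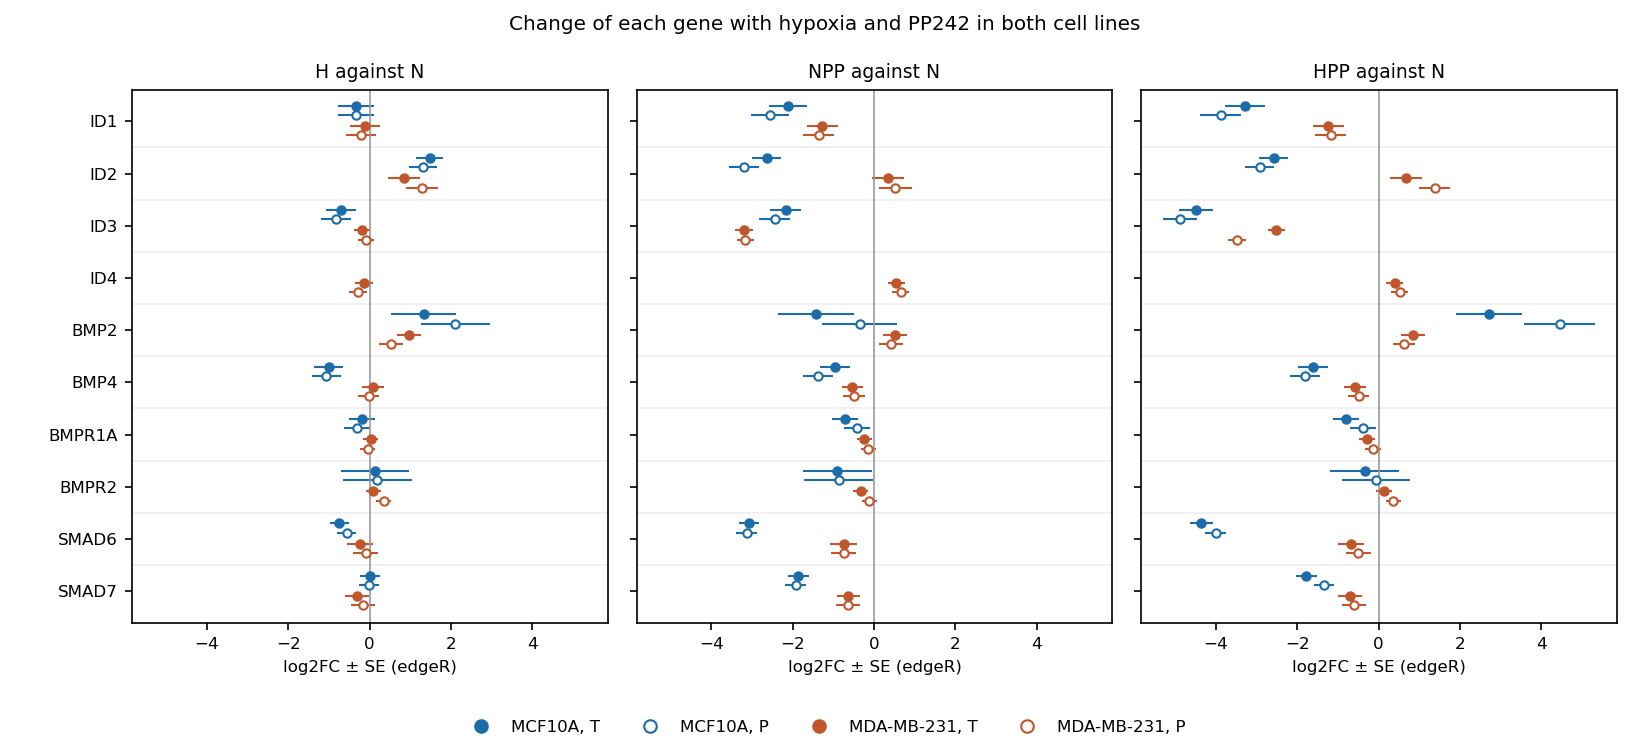
Change of each of the 10 genes against normoxia (log2FC, horizontal axis, bars ± SE) for hypoxia, PP242 and both, with filled points for T and open points for P, blue for MCF10A and orange for MDA-MB-231. ID1, ID2, ID3, SMAD6 and SMAD7 sit left of 0 with PP242 in MCF10A, whereas ID2 sits right of 0 in MDA-MB-231; ID4 has no MCF10A point.

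ID1, a target and the most abundant of the 10 genes per length in MCF10A, was 487 and 518 CPM in N T, 366 and 429 in H T, 58.3 and 173 in NPP T, and 45.3 and 57.5 in HPP T. The 4 libraries with PP242 were all below the 4 without it, and replicate 1 and replicate 2 of NPP were far apart. In P the levels were 1086 and 655 CPM in N, 850 and 523 in H, 122 and 174 in NPP, and 62.2 and 56.1 in HPP, again without overlap. The change with HPP was −3.29 (SE 0.49, edgeR adjusted p = 0.00133) in T and −3.88 (SE 0.50, edgeR adjusted p = 0.000491) in P. With NPP it was −2.56 (SE 0.47, edgeR adjusted p = 0.0291) in P and −2.12 (SE 0.46, edgeR adjusted p = 0.0772) in T, which did not pass. Without NPP T replicate 2 the T value was −3.11 (edgeR adjusted p = 0.0295). The NPP call in P lost significance in 11 of 16 fits that left out 1 library.

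In MDA-MB-231 ID1 was 23.9 and 12.8 CPM in N T, 16.3 and 17.9 in H T, 8.20 and 7.11 in NPP T, and 8.99 and 6.68 in HPP T. PP242 libraries were again below the others in T, and the 2 normoxic libraries differed from each other by more than N and H did. The HPP change was −1.24 (SE 0.39, edgeR adjusted p = 0.0491) in T and −1.17 (SE 0.38, edgeR adjusted p = 0.0432) in P. The call in T was lost in 13 and that in P in 11 of the 16 fits that left out 1 library. The call in T was also lost with RLE size factors, that in P with the offset for transcript length and with only the libraries compared, and both with all gene classes. The values nearest 0 came without N replicate 1, at −0.70 in T and −0.25 in P.

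ID2, whose product also sequesters helix-loop-helix factors, stood higher with hypoxia and lower with PP242 in MCF10A. Its T level was 23.8 and 25.1 CPM in N, 55.3 and 80.5 in H, 3.20 and 4.65 in NPP, and 3.40 and 4.80 in HPP. H libraries were all above N and PP242 libraries all below, while NPP and HPP overlapped. The change with H was 1.47 (SE 0.34, edgeR adjusted p = 0.0619) in T and 1.32 (SE 0.34, edgeR adjusted p = 0.0937) in P, and so did not pass in either fraction. It fell with NPP, with a log2FC of −2.64 (SE 0.36, edgeR adjusted p = 0.00861) in T and −3.20 (SE 0.37, edgeR adjusted p = 0.00298) in P. Each of these calls was lost in 2 of 16 fits that left out 1 library. Within hypoxia PP242 gave −4.05 (SE 0.38, edgeR adjusted p = 0.000452) in T, a 16.6-fold lower level. Whether the PP242 change depended on oxygen was tested as an interaction, a contrast chosen after the values were seen, and ID2 gave −1.41 in T (SE 0.48, edgeR adjusted p = 1).

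In MDA-MB-231 ID2 was scarce, at 0.717 and 1.02 CPM in N T and 0.740 and 0.517 in N P. It was 1.76 and 0.954 CPM in HPP T and 1.78 and 1.45 in HPP P. The HPP libraries lay above the N libraries in P and overlapped them in T. The HPP change in P was 1.38 (SE 0.39, edgeR adjusted p = 0.0229) and that in T was 0.68 (SE 0.39, edgeR adjusted p = 0.269). The HPP call in P was lost in 3 of 16 fits that left out 1 library. In P the H libraries, at 1.83 and 1.21 CPM, overlapped the HPP libraries. There H against N gave 1.28 (SE 0.39, edgeR adjusted p = 0.109) and NPP gave 0.52 (SE 0.40, edgeR adjusted p = 0.645). HPP against H, the PP242 change within hypoxia, gave 0.09 in P (SE 0.35, edgeR adjusted p = 0.896).

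ID3, another target, was chosen for its response to PP242 and is given as levels. In MCF10A T it was 214 and 280 CPM in N, 128 and 175 in H, 34.0 and 75.7 in NPP, and 9.61 and 12.4 in HPP. These 4 treatments did not overlap in the order N, H, NPP, HPP. The levels in P were 425 and 398 CPM, 282 and 181, 73.5 and 78.3, and 15.5 and 12.4, in the same order and also without overlap. The log2FC with HPP was −4.49 (SE 0.42) in T, a level 22.4-fold lower, and −4.88 (SE 0.42) in P, while with NPP it was −2.17 (SE 0.38) and −2.44 (SE 0.38). The NPP value in T was −2.86 without NPP T replicate 2 and −1.71 without replicate 1. Hypoxia alone, which did not choose the gene, gave −0.71 in T (SE 0.36, edgeR adjusted p = 0.548) and −0.83 in P (SE 0.36, edgeR adjusted p = 0.369).

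The order of ID3 levels was not the same in MDA-MB-231. In T it was 13.7 and 17.1 CPM in N, 11.6 and 15.4 in H, 1.73 and 1.62 in NPP, and 2.93 and 2.43 in HPP. N and H overlapped, and HPP lay above NPP. In P it was 20.3 and 21.8 CPM in N, 19.6 and 20.1 in H, 2.75 and 1.94 in NPP, and 2.02 and 1.74 in HPP, where NPP and HPP overlapped. The log2FC with NPP was −3.19 (SE 0.22) in T and −3.16 (SE 0.22) in P, and with HPP −2.51 (SE 0.21) and −3.49 (SE 0.22).

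ID4, the member of the family that was measured in 1 line only, was 13.7 and 10.7 CPM in N T of MDA-MB-231, 10.8 and 11.5 in H T, 20.1 and 15.6 in NPP T, and 19.3 and 12.8 in HPP T. In P it was 19.0 and 14.4 CPM in N, 14.6 and 12.7 in H, 27.0 and 25.5 in NPP, and 24.1 and 23.5 in HPP, so that PP242 libraries were above the rest. HPP against H in P rose by 0.80 (SE 0.21, edgeR adjusted p = 0.0236), a call lost in 4 of 16 fits that left out 1 library. The level of ID4 had a Pearson r of 0.48 with the balance of long and short transcripts over the 16 libraries, and its part in the call was not tested. NPP against N gave 0.54 in T (SE 0.21, edgeR adjusted p = 0.359) and 0.66 in P (SE 0.21, edgeR adjusted p = 0.152). ID1 and ID3 were lower with PP242 in these same libraries.

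**Figure D2:**
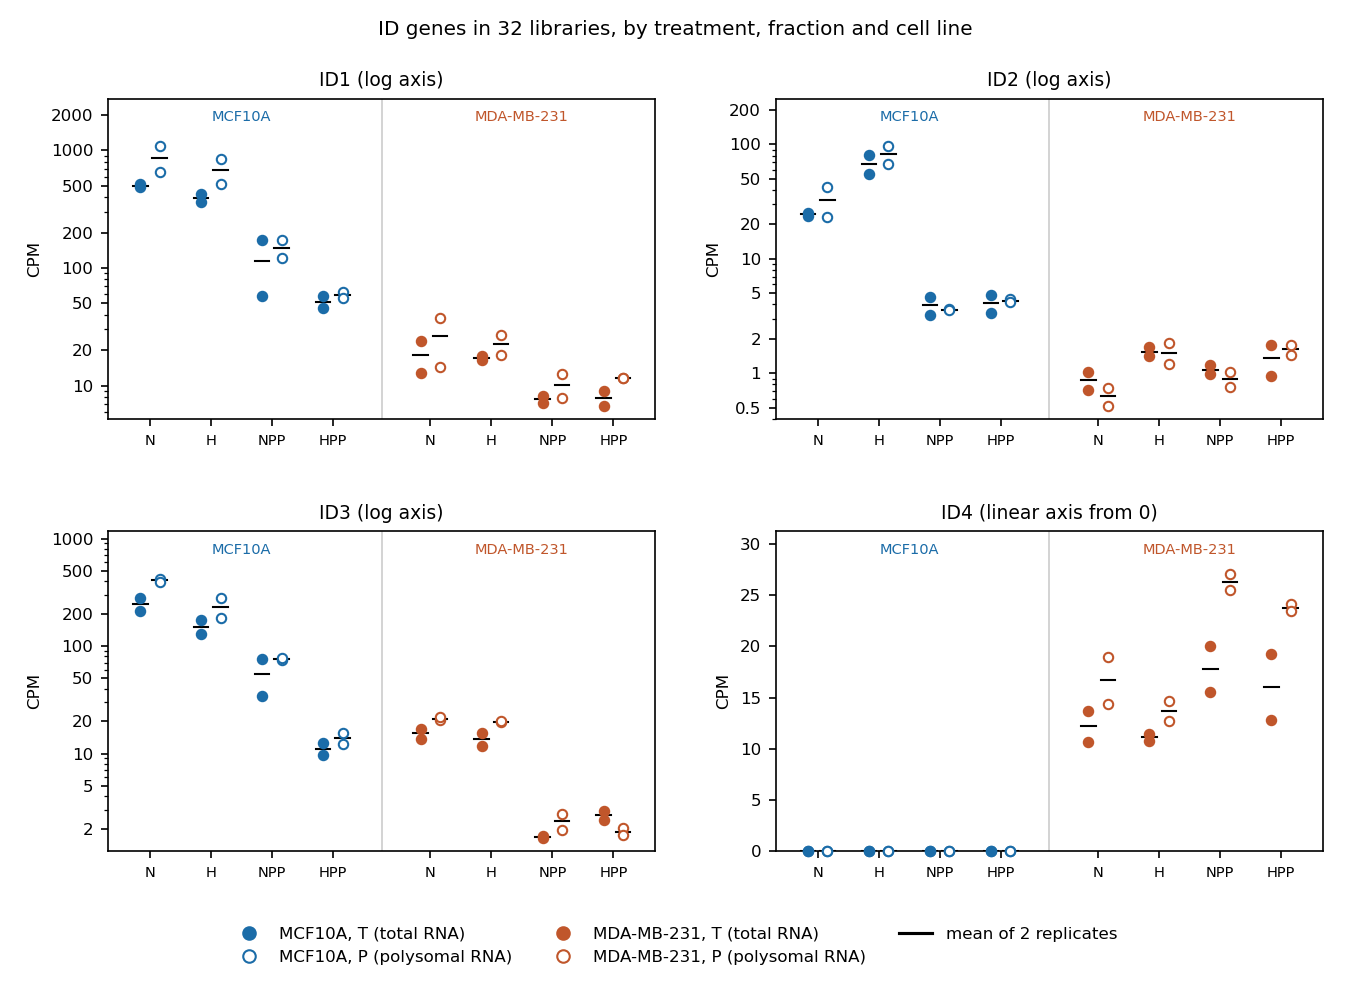
Level of ID1, ID2, ID3 (CPM, log axes) and ID4 (CPM, linear axis from 0) in each of 32 libraries, by treatment within each line, with filled points for T, open points for P and a bar at the mean of 2 replicates. ID3 in MCF10A steps down from 214 and 280 CPM in N T to 9.61 and 12.4 in HPP T, and ID4 lies at 0 in MCF10A apart from 1 count.

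Of the ligands, BMP2, also chosen for its response to PP242, was rare in MCF10A. Its T level was 0.522 and 0.379 CPM in N, 1.38 and 0.885 in H, 0.258 and 0.0419 in NPP, and 1.51 and 4.40 in HPP. The HPP libraries held 49 and 131 counts in T and 75 and 440 in P, so replicate 2 was several times replicate 1 in both fractions. In P the level was 0.210 and 0.321 CPM in N, 1.58 and 0.805 in H, 0.155 and 0.266 in NPP, and 2.08 and 9.92 in HPP. Both hypoxic groups lay above both normoxic groups in each fraction. The log2FC with HPP was 2.71 (SE 0.81) in T and 4.45 (SE 0.87) in P. Without HPP replicate 2 of the fraction it was 1.75 in T and 2.92 in P, and without replicate 1 it was 3.37 and 5.17. Hypoxia alone gave 1.33 in T (SE 0.79, edgeR adjusted p = 0.665) and 2.10 in P (SE 0.84, edgeR adjusted p = 0.315).

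In MDA-MB-231 BMP2 was 1.65 and 1.76 CPM in N T, 3.50 and 3.19 in H T, 3.05 and 1.78 in NPP T, and 3.43 and 2.66 in HPP T. All of the treated libraries lay above N. H against N gave 0.98 (SE 0.30, edgeR adjusted p = 0.151) in T, where the unadjusted p was 0.00523. The log2FC with HPP was 0.84 (SE 0.30) in T and 0.63 (SE 0.28) in P, and that of HPP against H was −0.13 (SE 0.28) in T.

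BMP4, the other ligand, was 17.3 and 21.6 CPM in N T of MCF10A, 10.0 and 9.32 in H T, 6.64 and 13.3 in NPP T, and 6.15 and 6.48 in HPP T. Every treated library was below the normoxic ones. It fell with HPP, with a log2FC of −1.62 (SE 0.37, edgeR adjusted p = 0.0127) in T and −1.80 (SE 0.37, edgeR adjusted p = 0.00571) in P, whereas HPP against H gave −0.62 in T (SE 0.36, edgeR adjusted p = 0.477). With NPP in P the change of BMP4 was −1.38 (SE 0.36, edgeR adjusted p = 0.102), and −1.39 without NPP T replicate 2. DESeq2 called that NPP change in P, beside 5.17% of the genes to which it gave an adjusted p. The HPP call was lost in 3 of 16 fits that left out 1 library in T and in 1 of 16 in P. In MDA-MB-231 BMP4 was 306 and 229 CPM in N T and 210 and 149 in HPP T, with a log2FC of −0.57 (SE 0.27, edgeR adjusted p = 0.172).

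The receptors gave no call with any treatment in either line when all libraries were fitted. Without NPP T replicate 2, BMPR1A was called lower with HPP in T of MCF10A, with a log2FC of −0.75 (edgeR adjusted p = 0.0374). BMPR1A, a type I receptor, was 43.6 and 45.7 CPM in N T of MCF10A, 36.7 and 17.8 in NPP T and 31.7 and 19.9 in HPP T, where replicate 2 was the lower in both PP242 groups. Its change with HPP was −0.79 in T (SE 0.32, edgeR adjusted p = 0.123) and −0.39 in P (SE 0.32, edgeR adjusted p = 0.407). BMPR2, the type II receptor, was 48.3 and 31.9 CPM in N T, 59.8 and 28.6 in H T, 37.6 and 5.15 in NPP T, and 53.6 and 9.50 in HPP T. In H, NPP and HPP the 2 T libraries of BMPR2 lay further apart than any 2 treatment means.

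Over the 16 MCF10A libraries the log2 level of BMPR2 had a Pearson r of 0.84 with the long minus short transcript balance and BMPR1A one of 0.63, while SMAD6 had 0.02 and ID1 −0.13. These correlations are over libraries that share treatment groups and are given as a description. In MDA-MB-231, where the balance varied less, r was 0.55 for BMPR2, 0.48 for ID4, −0.43 for ID3, −0.31 for ID1 and −0.01 for BMPR1A. Without NPP T replicate 2 the NPP change of BMPR2 in T was −0.09 in place of −0.90, and that of BMPR1A was −0.29 in place of −0.71. The intervals were wide, and for BMPR2 with NPP in T the 95% interval ran from −2.75 to 0.94.

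**Figure D3:**
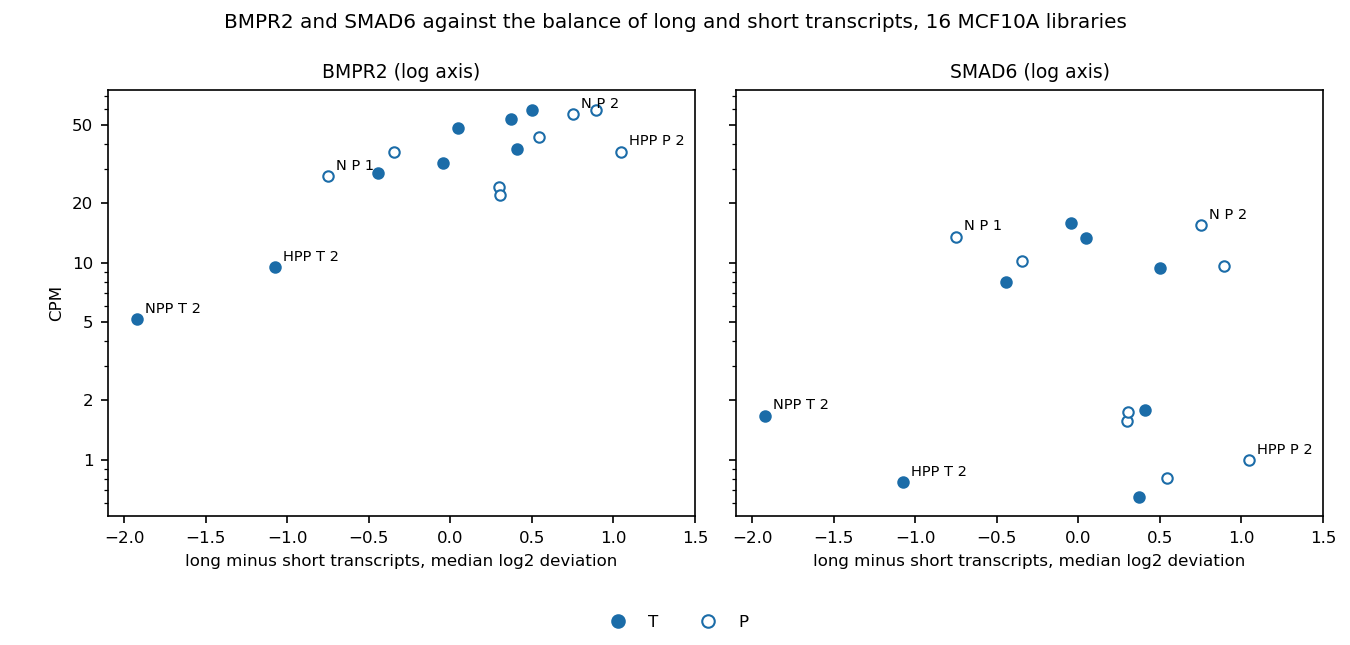
Level of BMPR2 and SMAD6 (CPM, log axis) in 16 MCF10A libraries against the balance of long and short transcripts (median log2 deviation of long minus that of short), with filled points for T and open points for P and some libraries named by treatment, fraction and replicate. BMPR2 is lowest where the balance is lowest, in NPP T replicate 2 at −1.92, and SMAD6 is at most 1.78 CPM in the 8 PP242 libraries and at least 8.02 CPM in the other 8.

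Both inhibitory SMADs fell with PP242 in MCF10A, in T and in P. SMAD6 was 13.3 and 15.9 CPM in N T, 9.40 and 8.02 in H T, 1.78 and 1.67 in NPP T, and 0.649 and 0.772 in HPP T. The groups did not overlap, and the 2 libraries of NPP T, so unlike in BMPR2, were close. In P it was 13.5 and 15.5 CPM in N, 10.2 and 9.60 in H, 1.58 and 1.74 in NPP, and 0.805 and 0.992 in HPP, in the same order. It fell in T, with a log2FC of −3.07 for NPP (SE 0.26, edgeR adjusted p = 0.000836) and −4.36 for HPP (SE 0.28, edgeR adjusted p = 3.22e-05), the latter a 20.5-fold lower level. It also fell in P, by the same measure −3.13 (SE 0.25, edgeR adjusted p = 0.00057) and −4.01 (SE 0.27, edgeR adjusted p = 3.06e-05) in P. In the fits that left out 1 library none of these 4 calls was lost.

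SMAD7, which also blocks TGF-β receptors, was 19.2 and 16.2 CPM in N T, 19.5 and 16.2 in H T, 5.61 and 4.10 in NPP T, and 5.53 and 4.80 in HPP T. N and H overlapped, as did NPP and HPP, and the 2 pairs were apart. It fell in T, with a log2FC of −1.86 for NPP (SE 0.26, edgeR adjusted p = 0.00875) and −1.78 for HPP (SE 0.25, edgeR adjusted p = 0.00116). In P these were −1.93 (SE 0.26, edgeR adjusted p = 0.006) and −1.34 (SE 0.25, edgeR adjusted p = 0.00372). When 1 library was left out the NPP call was lost in 2 of 16 fits in T and in 3 of 16 in P. Hypoxia alone gave 0.01 in T (SE 0.25, edgeR adjusted p = 1) with a 95% interval of −0.53 to 0.55.

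In MDA-MB-231 SMAD6 was 10.7 and 7.16 CPM in N T, 9.12 and 5.97 in H T, 6.33 and 4.35 in NPP T, and 5.72 and 5.49 in HPP T. Its replicates spread over much of the range between groups. NPP gave −0.75 in T (SE 0.32, edgeR adjusted p = 0.427) and HPP −0.68 (SE 0.32, edgeR adjusted p = 0.175). SMAD7 was 8.82 and 16.2 CPM in N T and 7.57 and 7.66 in HPP T, with a log2FC of −0.70 (SE 0.29, edgeR adjusted p = 0.128).

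**Figure D4:**
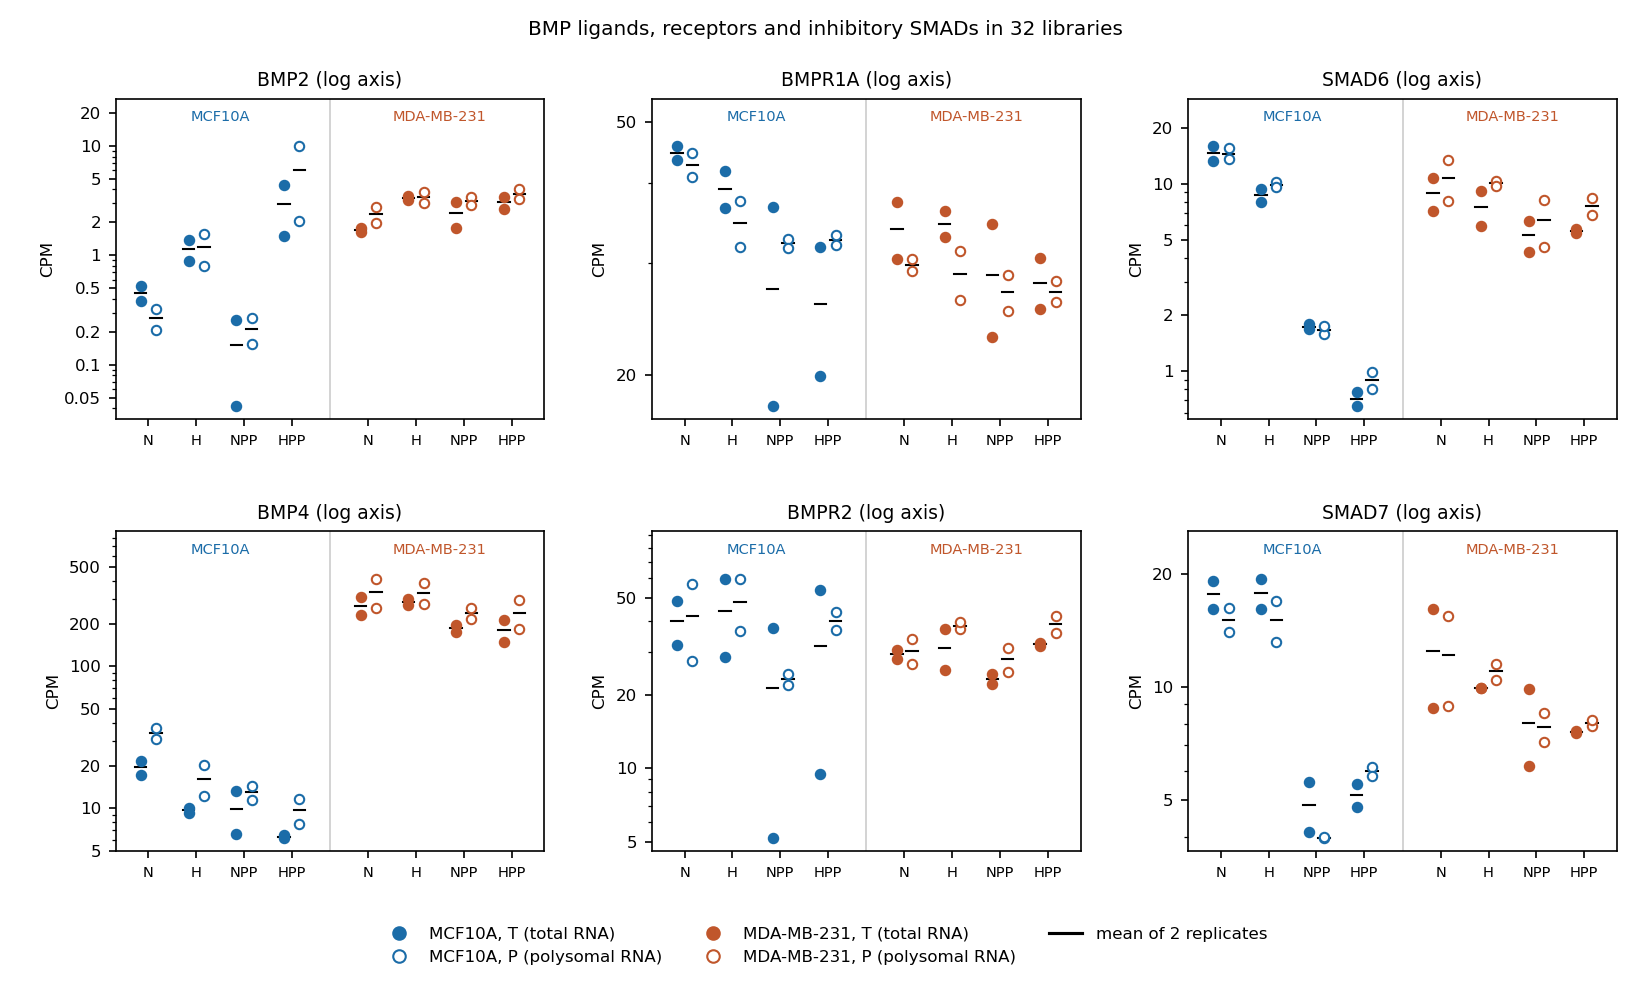
Level (CPM, log axes) of BMP2, BMP4, BMPR1A, BMPR2, SMAD6 and SMAD7 in each of 32 libraries, laid out as in the plot of ID levels. SMAD6 in MCF10A falls from 13.3 and 15.9 CPM in N T to 0.649 and 0.772 in HPP T, and BMPR2 replicates part in NPP T at 37.6 and 5.15 CPM.

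The difference between lines in each treatment change was tested in a joint edgeR fit. For NPP against N the test called 2 of 7 genes in T, ID2 and SMAD6, where 0.0560% of 14298 genes were called, and the same 2 genes in P, where 0.126% were. For HPP against N it called 2 of 7 in T (ID2 and SMAD6) against 3.31%, and 3 of 7 in P (ID1, ID2 and SMAD6) against 3.60%. For H against N it called 0 of 9 in T and 0 of 9 in P, where it called 0.266% and 0.329% of all genes. BMP4 had an unadjusted p under 0.05 in both of these, beside 7.47% of all genes in T and 6.49% in P. DESeq2 called no gene of the 9, beside 0.888% and 0.920% of all. In each call the change was less negative, or positive, in MDA-MB-231.

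ID2 differed between lines by 4.27 with HPP in P (SE 0.51, edgeR adjusted p = 0.000143) and by 3.33 (SE 0.51, edgeR adjusted p = 0.00134) in T. SMAD6 differed by 3.76 with HPP in T (SE 0.46, edgeR adjusted p = 0.000168) and by 3.48 in P (SE 0.45, edgeR adjusted p = 0.000248). SMAD7, called with PP242 in MCF10A only, differed by 1.30 with NPP in T (SE 0.39, edgeR adjusted p = 0.532), so that a line difference of SMAD7 was not shown. For the described ID3 the difference of the HPP change was 2.06 (SE 0.43) in T and 1.38 (SE 0.43) in P. For BMP2 it was −1.81 (SE 0.87) in T and −3.87 (SE 0.89) in P. The difference of the NPP change had the other sign for both genes. It was −0.95 (SE 0.43) in T and −0.69 (SE 0.42) in P for ID3, and 1.97 (SE 1.0) and 0.82 (SE 0.98) for BMP2.

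**Figure D5:**
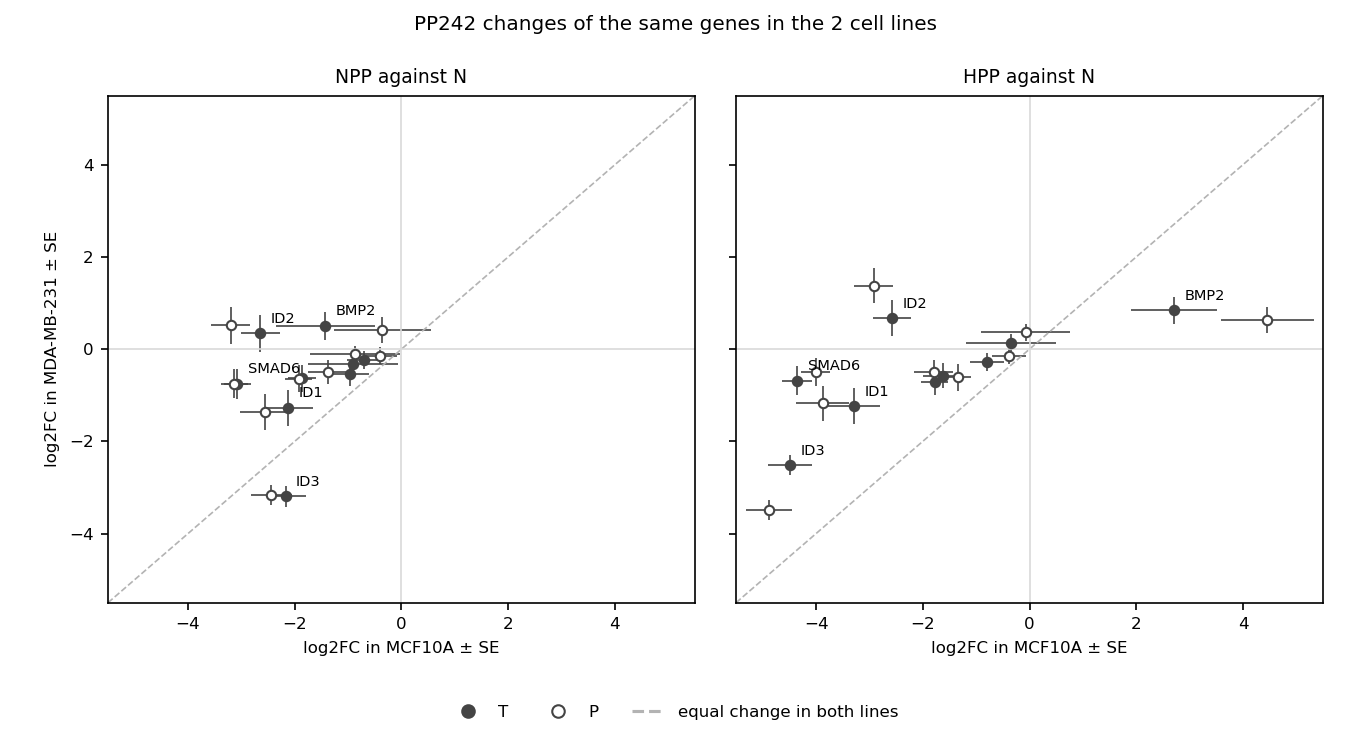
log2FC of the genes in MDA-MB-231 (vertical axis) against MCF10A (horizontal axis), each ± SE, for NPP and HPP against N, with filled points for T and open points for P, a dashed line of equal change, and 5 genes named at their T point. ID2 and SMAD6 lie far above the dashed line at negative MCF10A values, and ID3 with NPP lies below it.

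The share of an mRNA on polysomes was examined as P against T. Translational efficiency (Te) of a treatment was the log2FC in P minus that in T, tested as an interaction. In MCF10A the edgeR test called 0 of 9 genes for H and 0 of 7 for each of NPP, HPP and HPP against H. The edgeR background was 0% in all 4 tests. No gene of these had an unadjusted p under 0.05, beside 0.175% of all genes for H, 2.26% for NPP, 3.30% for HPP and 2.07% for HPP against H. DESeq2 called none of 9 for H and 0% of all genes. For each of the other 3 tests it gave an adjusted p to 1 of the 7 genes and did not call it, while it called 14.3% of the 657 genes with an adjusted p for NPP, 4.37% of 3201 for HPP and 15.98% of 657 for HPP against H. In MDA-MB-231 edgeR called 0 of 10 for H (background 0.0148%) and 0 of 8 for NPP (0.340%), HPP (0.696%) and HPP against H (0.622%). Again none had an unadjusted p under 0.05, beside 1.33%, 2.18%, 3.36% and 3.34% of all genes in these tests. DESeq2 called none of 10 for H, of 1 with an adjusted p for NPP, and of 5 for HPP and for HPP against H. Its shares of all genes with an adjusted p were 0.0148%, 3.49%, 1.65% and 1.49%. The described ID3 had a Te change of −0.97 (SE 0.29) with HPP in MDA-MB-231 and −0.40 (SE 0.51) in MCF10A. BMP2 had 1.75 (SE 1.13) with HPP in MCF10A and −0.22 (SE 0.41) in MDA-MB-231. Standard errors of the tested Te changes in MCF10A ran from 0.33 for SMAD6 to 1.19 for BMPR2, so small changes were not detectable. Since edgeR called no gene at all in the Te tests of MCF10A, its 0 calls there do not set these genes apart from others.

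In normoxia, P minus T, relative to the average mRNA, was 0.79 for ID1 in MCF10A (SE 0.45, edgeR adjusted p = 0.487), 0.80 for BMP4 (SE 0.36, edgeR adjusted p = 0.388) and 0.73 for ID3 (SE 0.36, edgeR adjusted p = 0.426). The test called 0 of 9 genes there and 0% of all genes, with BMP4 alone at an unadjusted p under 0.05 (12.6% of all genes) and none by DESeq2 (0.801% of all). In MDA-MB-231 edgeR called 0 of 10 while it called 13.1% of all genes, with ID3 alone at an unadjusted p under 0.05 (0.45, SE 0.19, edgeR adjusted p = 0.131), beside 29.3% of all genes, and none by DESeq2, beside 19.6%.

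The rest of the BMP and TGF-β pathway was read from a list of 62 genes in 7 roles, of which 51 passed the count filter in each line. In MCF10A the edgeR test called 6 of 51 with HPP in T, all decreases, and 9 in P, 4 higher and 5 lower. These were 11.8% and 17.6% of the list, beside 14.9% and 22.2% of all genes. The medians of the list were −0.32 and −0.18, beside −0.01 and −0.04 over all genes. With NPP it called 2 lower in T (3.92%, beside 0.648% of all genes), and 1 higher and 2 lower in P (5.88%, beside 0.823%). In MDA-MB-231 it called 5 higher and 3 lower with HPP in T, and 6 higher and 1 lower in P, with medians of 0.17 and 0.28 beside −0.05 and 0.01 over all genes. These calls were 15.7% and 13.7% of the list, beside 13.2% and 19.4% of all genes. With NPP it called 1 in T and 2 in P (1.96% and 3.92%, beside 0.555% and 1.95%). Hypoxia alone gave 1 call in T in each line (1.96%, beside a background of 1.54% for MCF10A and 1.27% for MDA-MB-231). In P it gave none in MCF10A, where 1.49% of all genes were called, and 3 in MDA-MB-231 (5.88%, beside 2.29%).

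Among intracellular brakes, PMEPA1, which holds back receptor-activated SMADs, fell in MCF10A in all 6 comparisons with PP242. Its level was 174 and 200 CPM in N T, 48.5 and 39.4 in NPP T and 33.0 and 33.0 in HPP T, and its log2FC ran from −2.09 to −2.53. In MDA-MB-231 it was 63.9 and 41.0 CPM in N T and 31.3 and 43.7 in HPP T and was called in no comparison. SKIL, a SMAD corepressor, was lower in MDA-MB-231 HPP T, with a log2FC of −0.52 (SE 0.15, edgeR adjusted p = 0.0311). TOB1, also listed as a brake, rose for HPP against H in P of MCF10A by 1.16 (SE 0.30, edgeR adjusted p = 0.041).

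The 11 antagonists on the list are secreted proteins apart from the transmembrane pseudoreceptor BAMBI. Of these, 9 were tested in MCF10A and 8 in MDA-MB-231. In a comparison 0 to 3 were called, where 0.555% to 22.2% of all genes were. With HPP in T 1 of 9 was called lower in MCF10A, beside 14.9% of all genes. In MDA-MB-231 2 of 8 were called higher, beside 13.2%. NOG encodes noggin, which binds BMP2 and BMP4. In MCF10A it was 7.44 and 7.21 CPM in N T, 17.3 and 19.0 in H T, 1.78 and 2.30 in NPP T and 3.40 and 3.53 in HPP T. Its log2FC in T was −1.85 with NPP (SE 0.35, edgeR adjusted p = 0.0403) and −2.39 for HPP against H (SE 0.35, edgeR adjusted p = 0.00411). In MDA-MB-231, at 124 and 113 CPM in N T, 243 and 270 in H T and 242 and 249 in HPP T, it rose with H by 1.11 (SE 0.15, edgeR adjusted p = 0.000878) and with HPP by 1.05 (SE 0.15, edgeR adjusted p = 0.000607). H and HPP overlapped there, and HPP against H was not among the calls.

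FST encodes follistatin, an activin and BMP binding protein, and was called in the same direction in both lines. In P of MCF10A it was 0.943 and 0.922 CPM in N, 0.188 and 0.380 in H, 8.84 and 5.96 in NPP, and 1.97 and 5.43 in HPP. PP242 libraries were all above the others. It rose with NPP by 2.99 (SE 0.55, edgeR adjusted p = 0.0291) and with HPP by 1.99 (SE 0.53, edgeR adjusted p = 0.0207) in P. In P of MDA-MB-231 it was 172 and 142 CPM in N and 359 and 266 in NPP, a rise of 0.99 (SE 0.18, edgeR adjusted p = 0.00834). CHRDL1, a chordin-like antagonist, fell with H in T of MCF10A, with a log2FC of −2.70 (SE 0.54, edgeR adjusted p = 0.0302), from 0.940 and 1.12 CPM to 0.164 and 0.148. FSTL3, another antagonist, rose with H in P of MDA-MB-231 by 0.86 (SE 0.21, edgeR adjusted p = 0.0468). BAMBI fell for HPP against H in the same fraction and line, with a log2FC of −0.59 (SE 0.18, edgeR adjusted p = 0.0418).

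Of the signal transducers SMAD1, which carries the BMP signal, was 11.4 and 9.50 CPM in N T of MCF10A and 1.14 and 1.34 in HPP T. It fell, with a log2FC of −3.07 (SE 0.55, edgeR adjusted p = 0.00392). In MDA-MB-231 SMAD5, with the same role, was 87.5 and 72.4 CPM in N T and 57.7 and 48.7 in HPP T, a log2FC of −0.59 (SE 0.15, edgeR adjusted p = 0.0221). Of the other ligands, TGFB2 fell with HPP in T of MCF10A, with a log2FC of −2.58 (SE 0.69, edgeR adjusted p = 0.0274). BMP6 had 0 and 0 counts in N P and 5 and 29 in HPP P of MCF10A, where the test called it (edgeR adjusted p = 0.0164), and no fold is given from so few counts. In MDA-MB-231 TGFB1 rose with H in P by 0.61 (SE 0.14, edgeR adjusted p = 0.0344).

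Of the receptors and co-receptors, ACVR2B, a type II receptor, rose in MDA-MB-231 with HPP by 1.05 (SE 0.25, edgeR adjusted p = 0.0138) in T. RGMA, a BMP co-receptor, had 1 and 1 counts in N P there and 13 and 16 in HPP P (edgeR adjusted p = 0.0108). Of the targets, the homeobox gene MSX1 was 9.14 and 7.52 CPM in N T of MCF10A and 1.58 and 1.65 in HPP T, a log2FC of −2.37 (SE 0.34, edgeR adjusted p = 0.00116). ATOH8, a helix-loop-helix factor, was 3.01 and 3.47 CPM in N T of MDA-MB-231 and 0.586 and 0.625 in HPP T, a log2FC of −2.41 (SE 0.53, edgeR adjusted p = 0.00936). CTGF, another listed target, rose with HPP in P of MCF10A by 1.68 (SE 0.48, edgeR adjusted p = 0.0285). For HPP against H in P of MDA-MB-231 CTGF rose by 0.84 (SE 0.24, edgeR adjusted p = 0.0378). The 3 helix-loop-helix partners of ID proteins on the list, TCF3, TCF4 and TCF12, gave 1 call, TCF3 with HPP in P of MCF10A (−0.88, SE 0.25, edgeR adjusted p = 0.0282). In that comparison 22.2% of all genes were called.

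Within MCF10A the log2 CPM of 9 of the genes, ID4 left out, had Pearson correlations of unequal size over the 16 libraries. The r was 0.97 between ID1 and ID3, 0.95 between ID1 and SMAD6, 0.94 between ID3 and SMAD6, and 0.91 for SMAD7 with each of ID2 and SMAD6. Lower values included 0.78 between ID2 and ID3, 0.73 between ID3 and SMAD7, 0.50 for BMP4 with each of ID2 and SMAD7, and −0.53 between ID3 and BMP2. In MDA-MB-231 it was 0.82 between ID1 and ID3, 0.91 between ID1 and BMP4, and −0.04 between ID1 and ID2. These are descriptions over libraries that share treatment groups and cultures.

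Among 12374 genes measured in both lines, the 5 whose pattern was most like that of ID1, ranked by the smaller of the 2 within-line Pearson correlations over 16 libraries each, were IER5L (0.91), PHF23 (0.91), TIFA (0.89), C14orf169 (0.89) and SMAD6 (0.89). For ID3 they were IPPK (0.94), TRMT12 (0.94), CDC25A (0.93), RRS1 (0.93) and ZNF35 (0.93). For BMP2 they were ADM (0.81), PAM (0.80), B4GALT4 (0.79), ATP2C1 (0.79) and INSIG2 (0.79). The lists depended on the measure of likeness. By Spearman's rho the ID1 list was TIFA, PHF23, TP53RK, C14orf169 and PUS3, without SMAD6. By rho the ID3 list was PUS3, ZNF174, TIFA, GATA2 and TP53RK, none of which is in its Pearson list. By rho the BMP2 list was INSIG2, PAM, ERO1A, ATP2C1 and GBE1, without ADM and B4GALT4.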

How the data were processed

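The authors aligned poly(A)-selected libraries with STAR and used RSEM to obtain expected counts. The deposited values are whole numbers that had not been normalised, so no rounding was needed. The methods name GRCh38 and the labels' processing notes GRCh37, and coordinates here come from GENCODE on GRCh38. Columns without a sample numbered 0.

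The main tool was edgeR 4.0.16 (R 4.3.3), and DESeq2 1.42.0 served as an alternative. Protein-coding genes were filtered by filterByExpr, scaled by TMM and tested with the quasi-likelihood F test, 1 fit per line (8 groups) and a joint fit (16 groups). Each p was Benjamini-Hochberg adjusted over all tested genes, with a threshold of 0.05. The scripts were tested on simulated data. A permutation of 2 against 2 libraries cannot reach a two-sided p below 0.333, so none is given. T and P libraries with the same number were taken as 1 culture. The genes, lists and tests were chosen with earlier results of these data known. Named pathway genes were those called the same way in both lines, the largest called changes (at most 3 per direction, line and comparison) and roles of 3 or fewer genes.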

Additional observations from a re-analysis of the deposited data

Results flagged for a closer look

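Changes with NPP or HPP against N that differed between the lines were found for 3 genes over 4 comparisons, in 9 calls. They were found by the joint edgeR test of the difference (MDA-MB-231 minus MCF10A log2FC). HPP against N holds the change with hypoxia as well as that with PP242, and the line difference of HPP against H was not tested. Over all genes the test called 0.0560% with NPP in T, 0.126% with NPP in P, 3.31% with HPP in T and 3.60% with HPP in P. For ID2 the difference was 3.05 with NPP in T (edgeR adjusted p = 0.0309), 3.74 with NPP in P (edgeR adjusted p = 0.00257), 3.33 with HPP in T and 4.27 with HPP in P. For SMAD6 it was 2.39 with NPP in T (edgeR adjusted p = 0.0472), 2.42 with NPP in P (edgeR adjusted p = 0.0228), 3.76 with HPP in T and 3.48 with HPP in P. For ID1 it was 2.67 with HPP in P (edgeR adjusted p = 0.022), and the matching value in T, 2.13, did not pass (edgeR adjusted p = 0.0749). With NPP, the change with PP242 alone, the ID1 difference was 0.92 in T (SE 0.64) and 1.22 in P (SE 0.64), and neither passed.

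The SMAD6 difference with NPP in T lost its call in 25 of 32 fits that left out 1 library, and the ID2 difference with NPP in T in 8 of 32. Both were lost with RLE size factors, and that of SMAD6 also with no filter beyond 1 read and with all gene classes. The SMAD6 difference with NPP in P and the ID1 difference with HPP in P each lost it in 6 of 32. The ID1 difference was 3.53 without MDA-MB-231 N P replicate 1 and 2.14 without replicate 2. The lines differ in culture medium and count table as well as in cell type, and these cannot be told apart.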

How the results depend on the processing

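No called change reversed under any alternative that was run. When 1 library was left out, the described BMP2 change crossed 0 with NPP in P of MCF10A (0.01 without N P replicate 2) and for HPP against H in MDA-MB-231 (0.08 in T without HPP T replicate 2, −0.06 in P without HPP P replicate 1). The 25 calls of the genes in MCF10A were 19 when only the libraries compared were fitted and 34 with an offset for transcript length, which was chosen after seeing the data, and 21 to 29 when 1 library was left out. The 4 calls in MDA-MB-231 were 2 with all gene classes, 7 by DESeq2, 13 with no filter beyond 1 read, 14 with the replicate block and 14 with the replicate block within fraction. They were 0 to 4 when 1 library was left out, with 0 left without either HPP P library. Calls of Te and of P against T were 0 throughout. The 7 line differences in normoxic T, ID4 not counted, stood beside 40.7% of all genes called. The 9 differences in treatment change stood beside 1.28% of all tests called. Both numbers moved up and down when 1 library was left out. The number of differences in treatment change was highest without MCF10A NPP T replicate 1, where the share of all tests called was also highest. The 31 pathway calls in MCF10A were 52 by DESeq2, 60 with the length offset, 17 with only the libraries compared and 67 with the replicate block within fraction, and 21 to 42 when 1 library was left out. The 28 pathway calls in MDA-MB-231 were 14 at an absolute log2FC of at least 1, 58 with no filter, 44 with the replicate block and 46 with the block within fraction, and 19 to 28 when 1 library was left out. The share of all tests called over these 8 comparisons was 6.48% in MCF10A, 10.7% by DESeq2, 13.0% with the length offset, 3.57% with only the libraries compared and 12.6% with the block within fraction. It was 3.68% to 9.11% there when 1 library was left out. It was 6.75% in MDA-MB-231, 5.6% with all gene classes, 10.3% by DESeq2, 6.72% with no filter, 9.83% with the replicate block, 10.4% with the block within fraction, and 3.09% to 7.32% when 1 library was left out. Replicate numbers were not taken to pair the samples, since that would need every correlation of replicate deviations to be over 0.1, and 11 of 28 were in MCF10A and 19 of 28 in MDA-MB-231. Between T libraries of MCF10A all 6 were (0.28 to 0.78). The causes of these changes were not tested. With 2 libraries per group, and few BMP2 and ID2 counts in places, small changes were not detectable.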
